A study of Homo sapiens with 42 samples.

Results

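The globin genes of K562 cells are the 10 protein-coding genes of the human alpha-like and beta-like globin clusters. They were chosen by gene symbol, with earlier results of these data known. HBE1, HBG1, HBG2, HBD and HBB lie on chromosome 11, and HBZ, HBA1, HBA2, HBM and HBQ1 lie on chromosome 16. They are 10 of the 58243 genes in each of 2 count tables, one of mRNA-seq and one of nuclear RNA-seq. All 10 were tested in mRNA, and 9 of the 10 were tested in nuclear RNA, where the counts of HBM were too low.

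Haemoglobin carries oxygen in red cells and is built from pairs of alpha-like and beta-like chains, each holding a haem group. Within each cluster the genes stand on the chromosome in the order in which they are used in development, with embryonic genes first, and distant enhancers bind GATA1, TAL1 and KLF1 to drive them. Erythroleukaemia lines such as K562 are known for making embryonic and fetal globins and very little adult beta-globin.

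K562 is 1 line of human leukaemia cells that arose in the blast crisis of a chronic myeloid leukaemia and depends on the BCR-ABL1 kinase, so no group here is a patient or a second line. Untreated cells (CTRL) were compared with cells given 1 μM imatinib (IM), which inhibits BCR-ABL1, for 1, 6 or 18 hours. Other cells were given 5 μM JTE-607 (JTE), which inhibits the 3′-end endonuclease CPSF73, for the same times, or 110 mM KCl, a hyperosmotic shock, for 1 or 3 hours. Poly(A)+ mRNA of whole cells was sequenced in all 9 of these groups, and nuclear RNA depleted of rRNA in CTRL, IM 1h, IM 18h, JTE 1h and KCl 1h. Each of the 14 groups held 3 libraries from separate biological experiments, 42 in all, and the labels name no solvent control.

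Library totals lay between 16175394 and 25103205 counted read pairs, except for replicates 2 and 3 of the mRNA KCl 1h group with 62953314 and 42474454. Levels are given as CPM, the counts of a gene scaled to a library total of 1000000. A gene was called when edgeR's quasi-likelihood test gave a Benjamini-Hochberg adjusted p under 0.05 over all genes and the log2 fold change passed 0.6 in either direction. Among erythroid markers, TAL1 stood at 109 to 468 CPM and EPOR, the erythropoietin receptor gene, at 6.95 to 64.4 CPM in mRNA, and the platelet gene PF4 was at 0 in all libraries. EPCAM, listed as a marker of other cells, stood at 74.8 to 107 CPM in mRNA. In bulk RNA, more cells that make globin and more globin RNA per cell cannot be told apart.

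By coordinates of GRCh38, the canonical HBE1 transcript spans chr11:5268345-5269945, followed along the minus strand by HBG2 at chr11:5253188-5254781, HBG1 at chr11:5248269-5249857, HBD at chr11:5232838-5234483 and HBB at chr11:5225464-5227071. The alpha cluster runs along the plus strand from HBZ at chr16:152644-154503 through HBM at chr16:165978-166764, HBA2 at chr16:172876-173710 and HBA1 at chr16:176680-177522 to HBQ1 at chr16:180459-181179. Each of these transcripts has 3 exons. Only uniquely mapped reads were counted, so near-identical copies lost reads. Of the 150-base windows along the canonical transcript, 77.3% for HBA1 and 77.5% for HBA2 also occurred in the other copy. The share was 37.2% for HBG1 and 37.3% for HBG2, and 32% of the HBZ windows also occurred in the pseudogene HBZP1. Exon bases counted for HBE1 (49 of 928) and HBG2 (568 of 2027) also belong to other genes in the annotation, among them OR51B5. The values of HBA1, HBA2, HBG1, HBG2 and HBZ are therefore uncertain as levels, and the split of reads within a pair is uncertain too.

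The RefSeq promoter table held 2 of the 10 members, HBD and HBM. The HBD promoter is shown because HBD, the gene of the minor adult delta-chain, rose with the rest of the cluster under imatinib. These are the 250 bases before the start of HBD at chr11:5234484-5234733 on the minus strand of GRCh38.p14, 5′ to 3′. The capitals mark, in order, the word CCAAT and then the binding word of the GATA factors read on the opposite strand. The last is CATAAA, where many promoters hold a TATA box.
HBD promoter: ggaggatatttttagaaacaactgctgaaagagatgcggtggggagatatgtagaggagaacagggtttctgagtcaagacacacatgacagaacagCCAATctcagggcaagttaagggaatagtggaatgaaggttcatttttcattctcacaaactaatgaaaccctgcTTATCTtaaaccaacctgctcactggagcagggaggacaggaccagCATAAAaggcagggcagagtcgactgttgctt

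The search covered the word CCAAT and the CACCC box that KLF factors bind. It covered the GATA factors by the word AGATAA as well as its form AGATAG, together with TGATAA besides the form TGATAG. It covered the TATA box by TATAAA or its form CATAAA. Both strands were read, and no match overlapped another. In HBD these began 153 bases (CCAAT), 78 bases (GATA) and 32 bases (CATAAA) before the start, and CACCC had no match. Of 34788 promoters of the same length, 32% held CCAAT, 22.4% a GATA word and 18.2% TATAAA or CATAAA. The HBM promoter at chr16:165728-165977 held CACCC on the minus strand, 49 bases before its start, as did 54.7% of all promoters. A match is a description of letters only.

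In untreated mRNA the embryonic and fetal beta-like genes had the highest levels of the members in uniquely mapped reads. These levels were not corrected for shared sequence. The places of HBA1 and HBA2, with 77.3% and 77.5% of windows shared, are therefore uncertain. Per kilobase of the exons counted for each gene, the mean level was 1206 CPM per kilobase for HBE1, 675 for HBG1 and 617 for HBG2 (SD 379, 230 and 185, n = 3). HBZ, HBA1, HBA2 and HBM followed at 90.6, 88.3, 65.3 and 39.1 CPM per kilobase. HBQ1 stood at 8.45, HBD at 6.93 and HBB at 0.441 CPM per kilobase. The libraries of HBE1, HBG1 and HBG2 overlapped one another in this order, as did those of HBZ, HBA1 and HBA2. The place of HBG2 rests on the length used, because the table counts 2027 exon bases for it against 586 in the canonical transcript. With canonical lengths, HBG2 stood at 2133 and HBE1 at 1797 CPM per kilobase, with overlapping libraries.

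Together the 10 genes took 0.316 ± 0.1002% (SD, n = 3) of all counts in mRNA CTRL and 1.11 ± 0.239% in IM 18h. The share was 0.542 ± 0.143% in IM 6h and 0.237 ± 0.0593% in JTE 18h. In nuclear RNA it was 0.427 ± 0.0986% in CTRL and 1.22 ± 0.112% in IM 18h. Every IM 18h library lay above every CTRL library in both fractions.

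**Figure D1:**
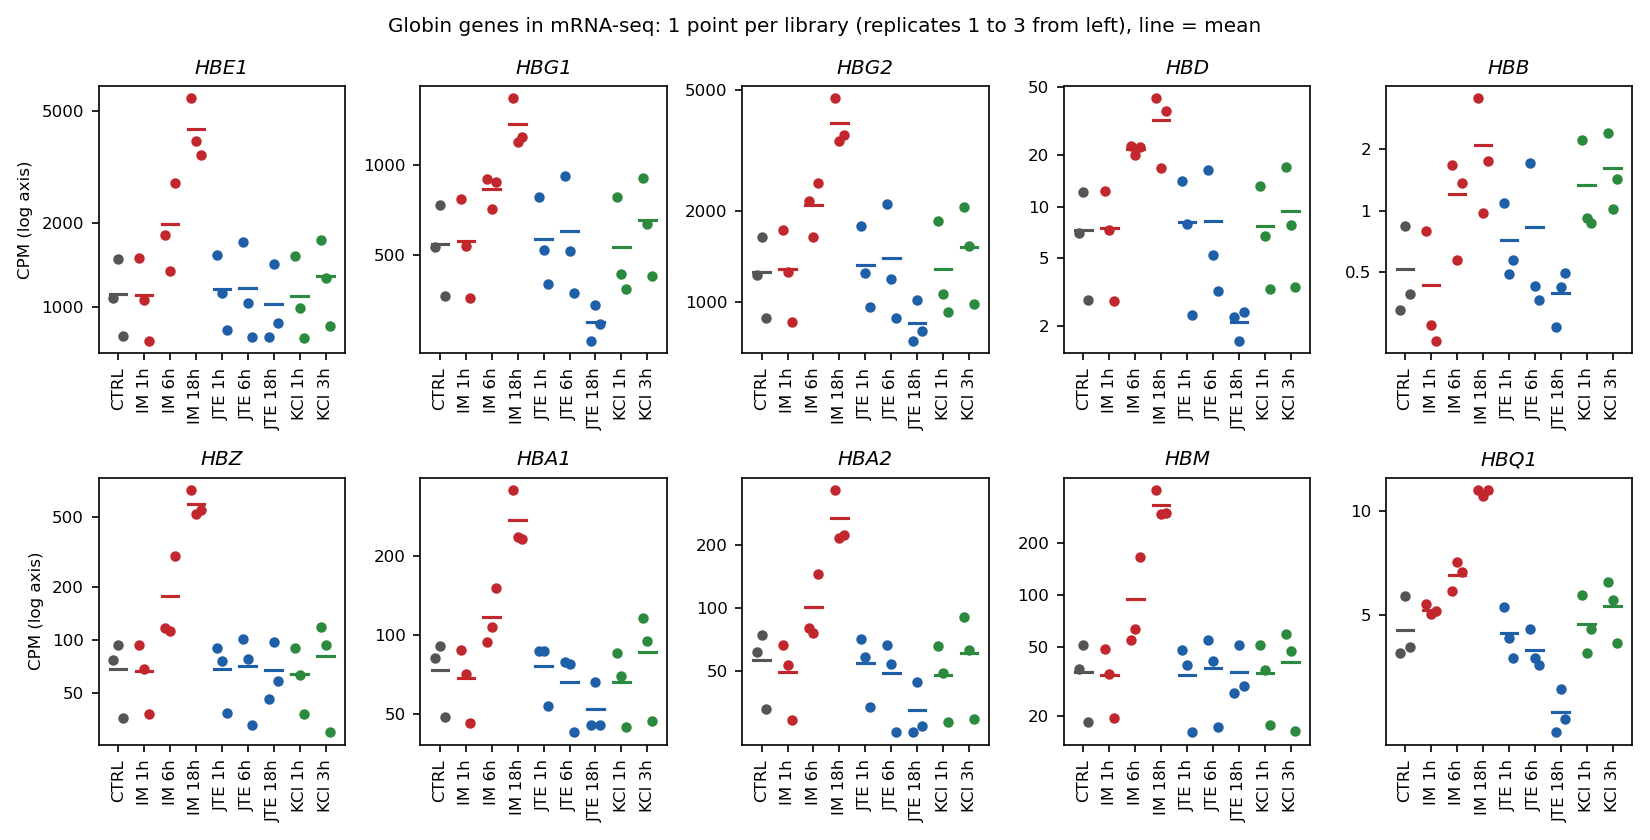
Level in CPM of each globin gene in the 27 mRNA libraries on a log axis, with 1 point per library, replicates 1 to 3 from left within a group, and a line at the group mean. All 3 IM 18h points lie above all 3 CTRL points for each of the 10 genes, and replicate 3 is the lowest CTRL point of HBE1, HBG1, HBG2, HBD, HBZ, HBA1, HBA2 and HBM.

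All 10 globin genes rose in mRNA after 18 hours of imatinib, against 17.2% of the 18095 genes tested that were called higher. Their median log2 fold change was 1.94, beside 0.04 over all genes tested. In all 10 the CPM of the 3 IM 18h libraries lay above the 3 CTRL libraries, which held for 31.6% of genes tested. The libraries of the untreated group are shared by every comparison with CTRL. Erythroid markers moved alongside. The mean level of EPOR was 18.8 CPM in CTRL and 60.5 CPM in IM 18h, and that of TFRC, the transferrin receptor gene, was 1332 and 2251 CPM. KLF1 and TAL1 were higher too and GATA1 was not, and the part of these markers in the result was not tested. Of 6 megakaryocyte genes none was above 6.58 CPM in any mRNA library.

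HBE1 encodes the embryonic epsilon-chain. Its mRNA level in CTRL replicates 1, 2 and 3 was 1078, 1490.3 and 791 CPM, and in IM 18h it was 5578, 3909 and 3487 CPM. All treated libraries were above all untreated ones, and the log2 fold change was 1.92 ± 0.39 (SE, n = 3 against 3; edgeR adjusted p = 0.000536), a 3.78-fold rise. HBZ encodes the embryonic zeta-chain, the alpha-like partner of epsilon. It measured 76.3, 93.0 and 35.9 CPM in CTRL and 714, 517 and 548 CPM in IM 18h. The lowest treated library stood far above the highest untreated one, and the log2 fold change of HBZ was 3.08 ± 0.59 (SE, n = 3 against 3; edgeR adjusted p = 0.00032), or 8.47-fold.

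The fetal gamma-chains are encoded by HBG1 and HBG2, which differ by few bases. HBG1 measured 533, 737 and 366 CPM in CTRL and 1665, 1193 and 1241 CPM in IM 18h, with no overlap. Its log2 fold change of 1.29 ± 0.36 (SE, n = 3 against 3; edgeR adjusted p = 0.00681) was one of the 2 lowest of the 10, and the call was lost without CTRL replicate 3 (adjusted p = 0.0524). HBG2 measured 1229.6, 1634 and 886 CPM in CTRL and 4710.5, 3410.1 and 3566 CPM in IM 18h. These groups did not overlap either, and the log2 fold change of HBG2 was 1.61 ± 0.36 (SE, n = 3 against 3; edgeR adjusted p = 0.00114).

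Adult beta-like genes were scarce. HBD, which encodes the delta-chain of the minor adult haemoglobin, measured 7.04, 12.2 and 2.86 CPM in CTRL and 43.2, 16.8 and 36.4 CPM in IM 18h. The untreated libraries spread widely, the highest IM 18h library was replicate 1, and the log2 fold change was 2.09 ± 0.72 (SE, n = 3 against 3; edgeR adjusted p = 0.0234). HBB, the gene of the adult beta-chain, had only 6, 16 and 7 counts in the CTRL libraries, or 0.327, 0.841 and 0.392 CPM. In IM 18h it measured 3.57, 0.977 and 1.76 CPM, just clear of CTRL at its lowest library, and its log2 fold change was 1.96 ± 0.61 (SE, n = 3 against 3; edgeR adjusted p = 0.0121). Single libraries decided both calls. The HBD call was lost in 4 of the 6 fits that left out 1 library (CTRL 1, CTRL 3, IM 18h 1 or IM 18h 3), and the HBB call in 3 of 6 (CTRL 1, CTRL 3 or IM 18h 1).

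HBA1 and HBA2 encode the same adult alpha-chain. HBA1 measured 81.9, 90.6 and 48.6 CPM in CTRL and 357, 235 and 232 CPM in IM 18h, and HBA2 measured 61.6, 73.7 and 32.5 CPM in CTRL and 369, 217 and 223 CPM in IM 18h. Neither gene's groups overlapped. The log2 fold change was 1.86 ± 0.36 (SE, n = 3 against 3; edgeR adjusted p = 0.000256) for HBA1 and 2.24 ± 0.48 (SE, n = 3 against 3; edgeR adjusted p = 0.000843) for HBA2.

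HBQ1, the theta gene at the far end of the alpha cluster, is expressed at a low level, and its protein has no settled role. It measured 3.87, 5.67 and 4.03 CPM in CTRL and 11.5, 11.1 and 11.6 CPM in IM 18h. The 3 treated libraries were nearly equal, and the log2 fold change was 1.29 ± 0.19 (SE, n = 3 against 3; edgeR adjusted p = 6.87e-06), the lowest adjusted p of the 10 with the joint smallest change.

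HBM encodes a minor alpha-like chain, mu. It measured 37.5, 51.3 and 18.6 CPM in CTRL and 408, 295 and 298 CPM in IM 18h, with a log2 fold change of 3.19 ± 0.61 (SE, n = 3 against 3; edgeR adjusted p = 0.000341). The exons that the table counts for HBM begin inside HBZ. They include HBZ exon 2 at chr16:153892-154096 and the second exon of HBZP1 at chr16:164482-164686, each 205 bases long. These 2 exons are identical, with 0 bases that differ, and 10385 bases lie between them. Of the 916 exon bases counted for HBM, 410 are shared in this way and 506 belong to HBM alone. In mRNA the count of HBM followed that of HBZ in every library, at 0.420 to 0.588 HBM counts per HBZ count. In nuclear RNA the ratio was between 0 and 0.00129. Which exons gave the HBM counts was not tested.

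**Figure D2:**
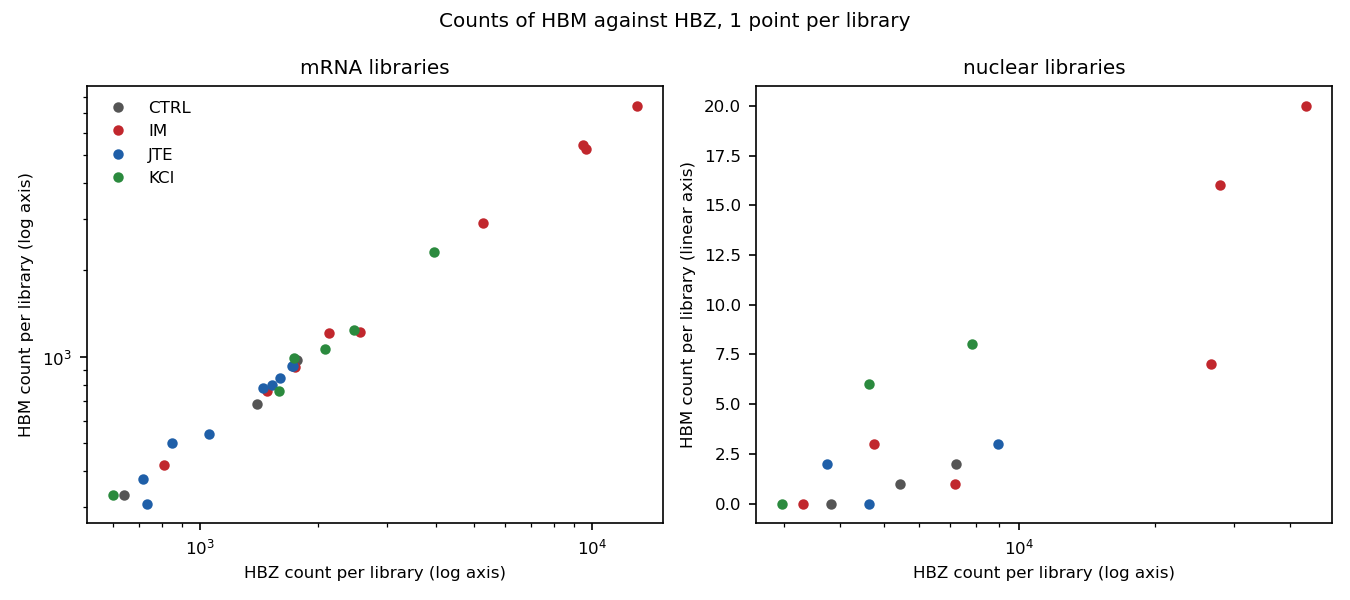
Count of HBM against count of HBZ, 1 point per library and 1 colour per treatment, with log axes for the 27 mRNA libraries and a linear HBM axis for the 15 nuclear libraries. The mRNA points keep a ratio of 0.420 to 0.588, while nuclear libraries hold 0 to 20 HBM counts.

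After 6 hours of imatinib the mean level of every globin gene lay between CTRL and IM 18h. No member was called in IM 1h (0.0166% of genes called in either direction) or in IM 6h (9.94%). An unadjusted p under 0.05 was found for 0 members at 1 hour, beside 206 of 18095 genes. At 6 hours it was found for 4 members, beside 5379 of 18095 genes. DESeq2 also called 0 members in these 2 comparisons and in every other one in which edgeR called 0. Without the filter on low counts, edgeR called 6 members higher in IM 6h (HBD, HBG2, HBE1, HBZ, HBM and HBA2). At 1 hour the log2 fold changes ran from -0.30 to 0.19. At 6 hours they were all above 0, from 0.47 to 1.49, with a lowest adjusted p of 0.0878 (edgeR). In 7 members, HBG2, HBD, HBZ, HBA1, HBA2, HBM and HBQ1, the 3 IM 6h libraries lay above the 3 CTRL libraries, against 21.5% of genes tested.

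HBD measured 22.5, 20.1 and 22.3 CPM in IM 6h, all above its CTRL libraries, with a log2 fold change of 1.49 ± 0.71 (SE, n = 3 against 3; edgeR adjusted p = 0.166). HBZ measured 117, 112 and 301 CPM and HBE1 1814, 1350.1 and 2778 CPM, with replicate 3 the highest of each. In CTRL, replicate 3 was the lowest for both. HBQ1 measured 5.85, 7.13 and 6.66 CPM at 6 hours.

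Between 1 and 6 hours of imatinib no member was called (8.2% of genes called in either direction). An unadjusted p under 0.05 was found for 5 members, beside 4960 of 18095 genes. The replicate numbers of these groups deviated together. With the replicate as a block over all mRNA groups 6 were called, HBB, HBD, HBZ, HBM, HBA2 and HBA1. Between 6 and 18 hours, HBA1 and HBQ1 were called higher (2.48% of genes). The log2 fold change was 1.25 ± 0.35 (SE, n = 3 against 3; edgeR adjusted p = 0.0296) for HBA1 and 0.82 ± 0.18 (SE, n = 3 against 3; edgeR adjusted p = 0.00749) for HBQ1. That count ran from 0 without IM 6h replicate 1 to 6 without IM 6h replicate 3.

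No globin gene was called higher after JTE at any time. No member was called after 1 hour (0.851% of genes called in either direction) or 6 hours (13.2%). An unadjusted p under 0.05 was found for 0 members at either time, beside 1341 and 5336 of 18095 genes. After 18 hours all 10 log2 fold changes were below 0, with a median of -0.59 beside -0.01 over all genes, and 1 member was called lower against 2.09% of genes. This was HBQ1, at 2.28, 3.04 and 2.49 CPM in JTE 18h and 3.87, 5.67 and 4.03 CPM in CTRL. Its libraries did not overlap, and its log2 fold change was -0.87 ± 0.20 (SE, n = 3 against 3; edgeR adjusted p = 0.00661). The call was lost without CTRL replicate 2 or without JTE 18h replicate 1.

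HBG1 and HBD also lay below CTRL in all 3 JTE 18h libraries, and with HBQ1 these were 3 of 10 members against 12% of genes. HBG1 measured 259.7, 342 and 296 CPM and HBD 2.28, 1.64 and 2.43 CPM in JTE 18h. The log2 fold change was -0.93 ± 0.36 (SE, n = 3 against 3; edgeR adjusted p = 0.119) for HBG1 and -1.87 ± 0.81 (SE, n = 3 against 3; edgeR adjusted p = 0.168) for HBD, so neither passed the test. HBE1, at 783, 1429.8 and 876 CPM, overlapped CTRL, with a 95% interval of the log2 fold change of -0.97 to 0.60. For HBZ this interval was -1.24 to 1.07.

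From 6 to 18 hours of JTE, 2 members were called lower (5.68% of genes). HBG1 went from 914, 518 and 374 CPM to 259.7, 342 and 296 CPM and fell by 1.15 ± 0.36 (SE, n = 3 against 3; edgeR adjusted p = 0.0279) on the log2 scale. HBQ1 went from 4.54, 3.75 and 3.57 CPM to 2.28, 3.04 and 2.49 CPM and fell by 0.74 ± 0.20 (SE, n = 3 against 3; edgeR adjusted p = 0.00942). With the replicate as a block over all mRNA groups, HBD and HBG2 were called lower as well, making 4. The count of 2 dropped to 0 without JTE 18h replicate 1 or 3, and to 1 (HBQ1) without JTE 18h replicate 2 or JTE 6h replicate 1.

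The 2 drugs, which have different targets, were set against each other at the same times. At 6 hours no member was called between IM and JTE (23.8% of genes called in either direction). An unadjusted p under 0.05 was found for 2 members, beside 7995 of 18095 genes. With the replicate as a block over all mRNA groups, 5 were higher in IM, HBD, HBZ, HBM, HBA2 and HBA1. HBQ1 passed the adjusted p (0.0158, edgeR) with a log2 difference of 0.60, just short of the fold threshold. At 18 hours all 10 were higher in IM than in JTE (16.7% of genes), with log2 differences of 2.10 to 3.96. HBD differed the most, by 3.96 ± 0.81 (SE, n = 3 against 3; edgeR adjusted p = 0.000588), and HBG1 by 2.23 ± 0.37 (SE, n = 3 against 3; edgeR adjusted p = 7.95e-05). All 10 calls remained in each of the 6 fits without 1 library.

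**Figure D3:**
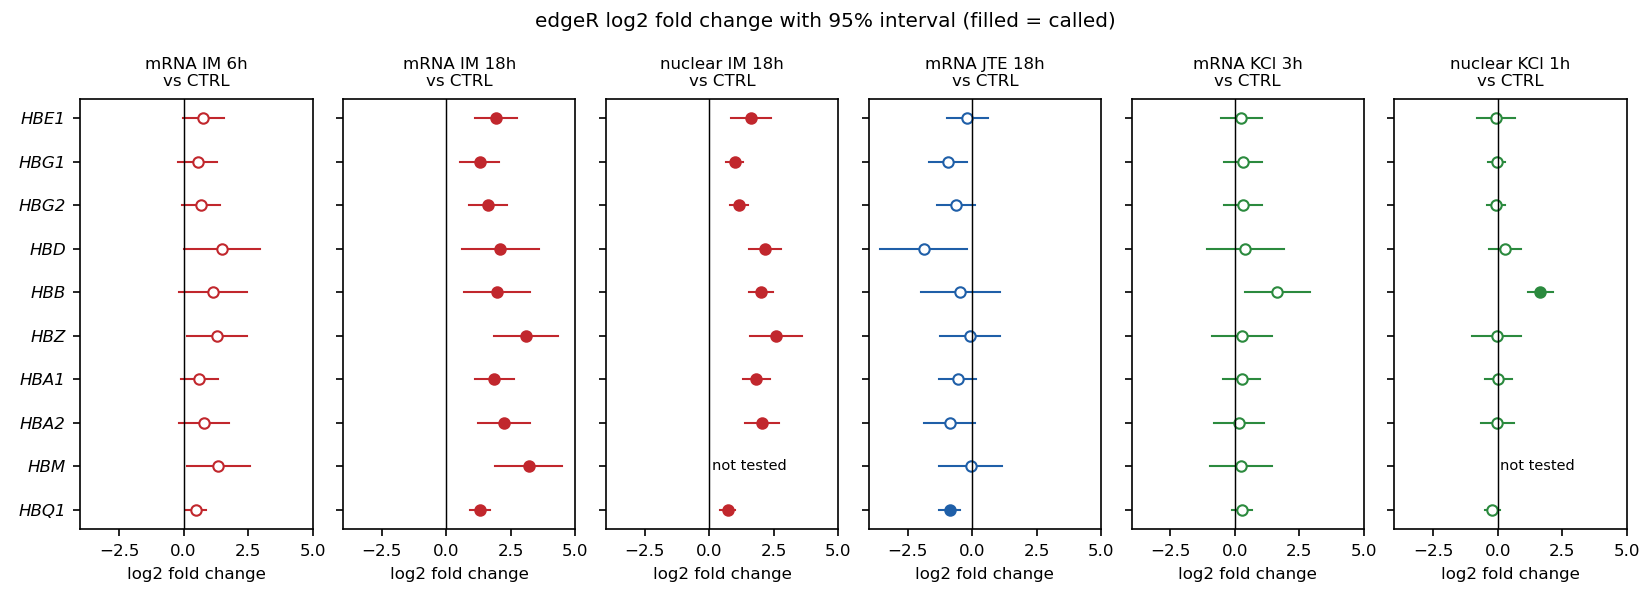
Log2 fold change of each globin gene against CTRL with its 95% interval from edgeR in 6 comparisons, filled where the gene was called. All 10 genes are filled in mRNA IM 18h and the 9 tested genes in nuclear IM 18h, while in JTE 18h HBQ1 alone and in nuclear KCl 1h HBB alone is filled.

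After KCl, HBB was the only member called, in nuclear RNA and not in mRNA. In nuclear RNA HBB measured 0.974, 1.26 and 1.62 CPM (22, 28 and 32 counts) in CTRL and 3.74, 3.45 and 4.73 CPM after 1 hour of KCl. All 3 treated libraries were above all 3 untreated ones, which held for 20.3% of genes. HBB rose by a log2 fold change of 1.65 ± 0.23 (SE, n = 3 against 3; edgeR adjusted p = 1.37e-05). The 1 call among the 9 tested members did not exceed the share over all genes, 15.3% called higher. HBB was called in all 6 fits that left out 1 library. The other 8 tested members had log2 fold changes of -0.20 to 0.28.

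In mRNA, HBB measured 2.23, 0.921 and 0.871 CPM after 1 hour of KCl and 2.40, 1.02 and 1.43 CPM after 3 hours, against 0.327, 0.841 and 0.392 CPM in CTRL. No library of either KCl group overlapped CTRL, as for 8.38% of genes at 1 hour and 12.3% at 3 hours. HBB alone of the members had this pattern. Its log2 fold change was 1.28 ± 0.61 (SE, n = 3 against 3; edgeR adjusted p = 0.321) at 1 hour and 1.65 ± 0.62 (SE, n = 3 against 3; edgeR adjusted p = 0.0749) at 3 hours, so it passed the test at neither time. No member was called in mRNA at 1 hour (5.45% of genes called in either direction), at 3 hours (11.9%) or between them (3.29%). An unadjusted p under 0.05 was found for 1 member, HBB, at 1 hour, beside 2711 of 18095 genes. HBB was also the only one at 3 hours, beside 4816 genes, and 0 members had it between them, beside 2696. The difference between the nuclear and mRNA responses of HBB to 1 hour of KCl was 0.32 on the log2 scale (95% interval -0.94 to 1.57) and did not pass the test.

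Nuclear RNA, which holds newly made and not yet exported transcripts, also showed higher globin levels after 18 hours of imatinib. All 9 tested members were called higher (17.2% of 21929 genes), and in all 10 the treated libraries lay above the untreated ones (29.3% of genes). HBE1 measured 957, 1349.6 and 1828 CPM in nuclear CTRL and 4978, 3832 and 4409.7 CPM in IM 18h, and its log2 fold change was 1.61 ± 0.35 (SE, n = 3 against 3; edgeR adjusted p = 0.00268). HBZ measured 169, 243 and 365 CPM in CTRL and 1841, 1330.3 and 1731 CPM in IM 18h, and rose by 2.60 ± 0.45 (SE, n = 3 against 3; edgeR adjusted p = 0.000696). HBB measured 0.974, 1.26 and 1.62 CPM in CTRL and 5.98, 5.23 and 4.82 CPM in IM 18h, with a log2 fold change of 2.00 ± 0.23 (SE, n = 3 against 3; edgeR adjusted p = 7.08e-07). The calls of these 9 remained in each of the 6 fits without 1 library.

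HBG1 measured 706, 894 and 994 CPM in nuclear CTRL and 1853, 1742 and 1788 CPM in IM 18h. HBG2 measured 1278, 1704 and 1801 CPM in CTRL and 3948, 3569 and 3584 CPM in IM 18h. The HBD level was 12.9, 15.8 and 18.7 CPM in CTRL and 68.8, 67.1 and 87.0 CPM in IM 18h. None of these groups overlapped, and the log2 fold changes were 0.99, 1.15 and 2.17. For the adult alpha genes, HBA1 measured 49.7, 72.1 and 83.6 CPM in CTRL and 252, 227 and 279 CPM in IM 18h, and HBA2 50.2, 78.1 and 93.1 CPM in CTRL and 328, 264 and 362 CPM in IM 18h. HBQ1 had 10.4, 14.2 and 13.6 CPM in CTRL and 22.2, 20.3 and 23.4 CPM in IM 18h. These groups did not overlap either. Their log2 fold changes were 1.82, 2.04 and 0.72, so HBQ1 changed least of the 9.

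HBM had 0, 1 and 2 counts in the 3 nuclear CTRL libraries and 20, 7 and 16 in IM 18h. Over the group the CPM ratio was 15.5 (exact 95% interval 4.96 to 78.1), which covers counting error only and rests on 3 CTRL counts. The CTRL library at 0 allows up to 0.133 CPM (3 counts). In nuclear RNA HBZ stood at 259 ± 98.6 CPM in CTRL against 68.4 ± 29.4 CPM in mRNA, and HBA1 at 68.4 ± 17.2 against 73.7 ± 22.2 CPM (SD, n = 3). Levels of the 2 library types were set side by side and not tested.

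Against IM 1h, the same 9 nuclear genes were called higher at 18 hours (16.8% of genes). No member was called in nuclear IM 1h (0.0456% of genes in either direction) or nuclear JTE 1h (8.52%). An unadjusted p under 0.05 was found for 0 members in nuclear IM 1h, beside 844 of 21929 genes. In nuclear JTE 1h it was found for 1 member, beside 4776 genes. The difference between the nuclear and mRNA responses was tested for 9 members in each of 4 treatments and was called for none. The background of such calls was 0% for IM 1h, 0.114% for IM 18h, 0.0658% for JTE 1h and 0.658% for KCl 1h. HBQ1 in IM 18h alone had an unadjusted p under 0.05, beside 741 of 16728 genes in IM 18h. Its nuclear response was lower than its mRNA response by 0.54 on the log2 scale (edgeR adjusted p = 1).

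**Figure D4:**
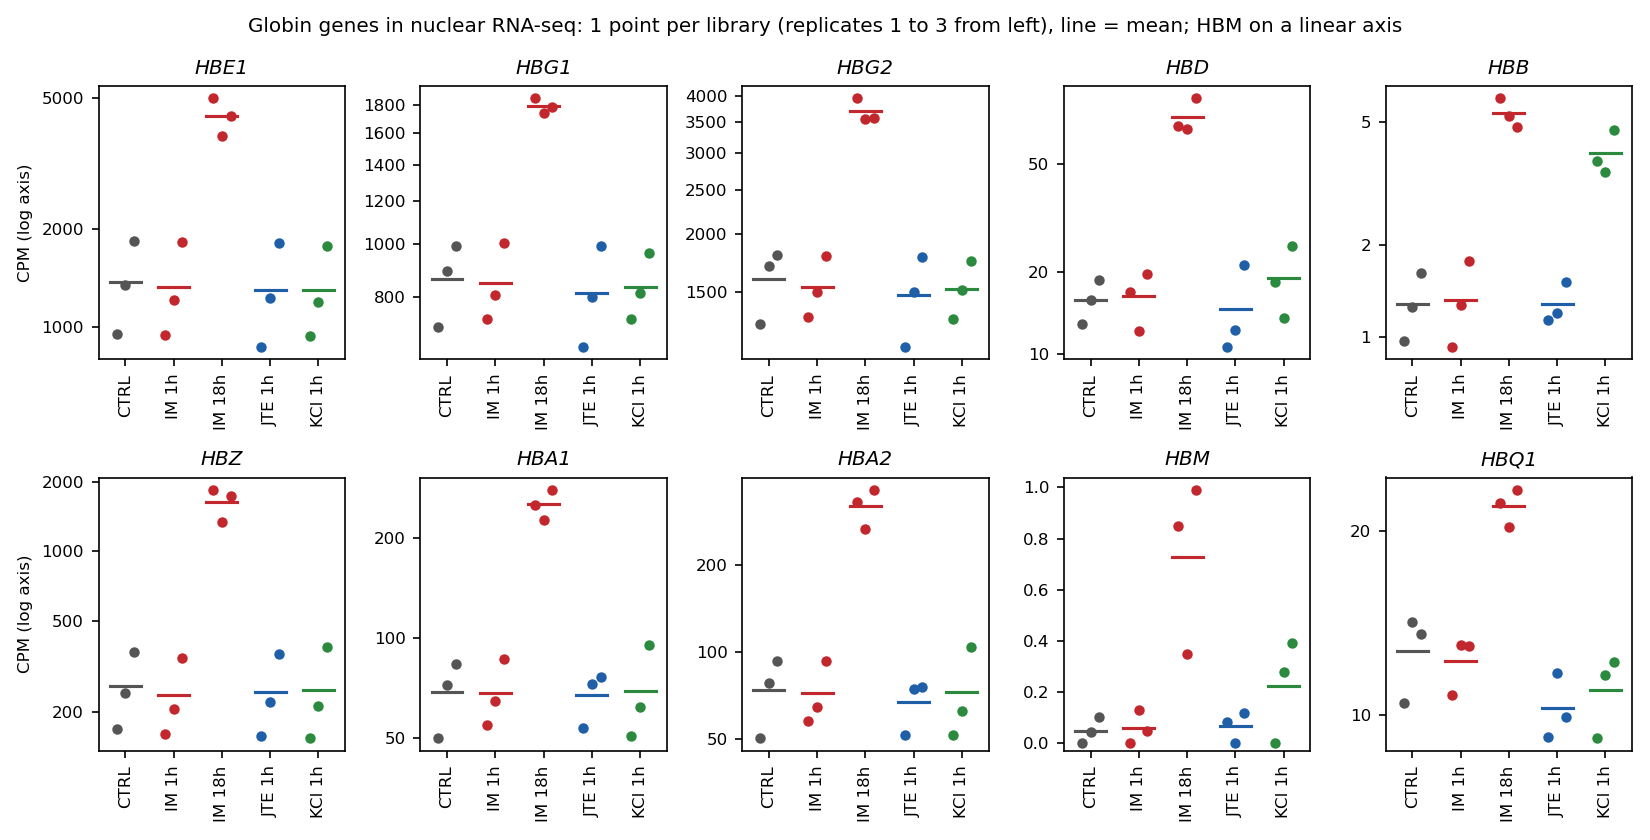
Level in CPM of each globin gene in the 15 nuclear libraries, with 1 point per library, replicates 1 to 3 from left, and a line at the group mean. The 3 IM 18h libraries lie above all CTRL libraries for the 10 genes, and HBB is also raised in the 3 KCl 1h libraries. HBM, on a linear axis, has its highest mean in IM 18h, at 0.729 CPM.

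The members did not rise to the same extent, and in IM 18h the embryonic genes took a larger share beside their later partners in every library. The count ratio of HBZ to HBA1 plus HBA2 was 0.513 ± 0.0639 in mRNA CTRL (SD, n = 3) and 1.11 ± 0.114 in IM 18h. In nuclear RNA it was 1.79 ± 0.238 and 2.86 ± 0.274. The ratio of HBE1 to HBG1 plus HBG2 was 0.624 ± 0.0109 in mRNA CTRL and 0.817 ± 0.0799 in IM 18h, and 0.552 ± 0.0904 and 0.800 ± 0.0706 in nuclear RNA. No treated library overlapped CTRL in these 4 comparisons. An exact two-sided permutation test of 3 against 3 cannot go below p = 0.1, which these ratios had. None could therefore pass 0.05 (adjusted p = 0.127 over 14 ratios). In mRNA IM 6h the HBZ ratio, at 0.767 ± 0.218, was also above CTRL in every library. The HBE1 ratio in IM 6h, at 0.666 ± 0.141, overlapped CTRL, and the IM 6h ratios were not tested.

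The same 2 ratios were also above CTRL in JTE 18h, without overlap, at 0.780 ± 0.119 for HBZ and 0.879 ± 0.154 for HBE1. There the libraries of HBE1, HBZ, HBG2, HBA1 and HBA2 each overlapped CTRL, and those of HBG1 lay below it. HBZ per HBE1 was 0.0595 ± 0.0129 in CTRL, 0.139 ± 0.0157 in IM 18h and 0.0646 ± 0.00498 in JTE 18h, the last overlapping CTRL (exact permutation p = 0.7). HBG2 per HBG1 moved from 2.31 ± 0.101 in mRNA CTRL to 2.85 ± 0.0227 in IM 18h and 2.84 ± 0.125 in JTE 18h, again without overlap. The fetal copies share sequence, so this ratio holds only for their uniquely mapped reads.

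**Figure D5:**
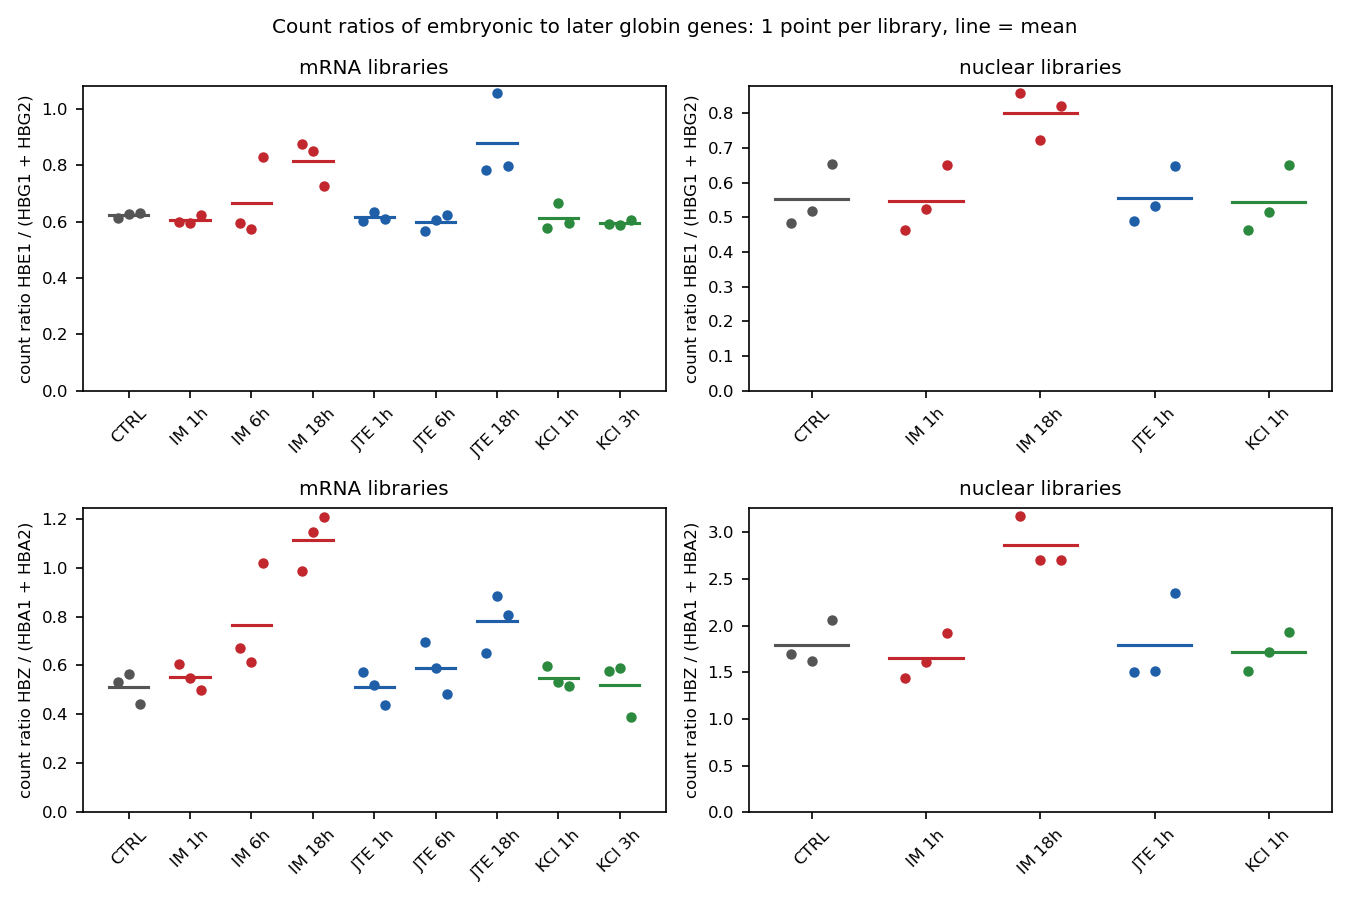
Count ratio of HBE1 to HBG1 plus HBG2 (top) and of HBZ to HBA1 plus HBA2 (bottom) in mRNA (left) and nuclear (right) libraries, with 1 point per library, a line at the group mean and axes from 0. Both ratios are highest in IM 18h in nuclear RNA, and in mRNA the IM 18h and JTE 18h points lie above all CTRL points.

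Over all 9 mRNA groups the mean level of HBE1 fell in the order IM 18h (4325 ± 1106 CPM), IM 6h (1981 ± 728), KCl 3h (1292 ± 445), JTE 6h (1177 ± 478), JTE 1h (1162 ± 357), CTRL (1119.5 ± 352), IM 1h (1106 ± 371), KCl 1h (1099 ± 381) and JTE 18h (1029 ± 349.9), each with its SD over 3 libraries. IM 18h was clear of IM 6h, and all other neighbours overlapped. For HBZ, IM 18h stood at 593 ± 106 CPM and IM 6h at 177 ± 108 CPM, and the other 7 groups had means of 63.6 to 80.4 CPM with overlapping libraries. In IM 1h, IM 6h, JTE 1h, JTE 6h, KCl 1h and KCl 3h, the 6 mRNA groups with no member called against CTRL, single libraries ran from 858 to 2477 CPM for HBG2, 42.6 to 150.3 for HBA1, 2.34 to 22.5 for HBD and 3.57 to 7.13 for HBQ1.

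Part of this spread followed the replicate number. In mRNA, replicate 3 was the lowest of its group for HBE1 in 7 of 9 groups, for HBA1 in 8, for HBZ in 6 and for HBD in 6. In nuclear RNA, replicate 1 was the lowest for HBE1, HBZ and HBA1 in 4 of 5 groups, while for HBD replicate 1 was the lowest in 2 and replicate 2 in 3. What distinguished these replicates was not tested.

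The genes around the clusters, the factors that control them and the genes of haem supply were counted from lists. Of the neighbours of the alpha cluster, 9 of 13 were tested in mRNA IM 18h; 3 rose (RHBDF1, NPRL3, FAM234A) and POLR3K fell, beside 17.2% of all genes higher and 13.2% lower. NPRL3, whose introns hold the main alpha-globin enhancer, went from 51.8 to 59.6 CPM in CTRL to 134.7 to 198.5 CPM in IM 18h, a log2 fold change of 1.52 ± 0.16 (SE, edgeR adjusted p = 1.19e-07). RHBDF1, a rhomboid family gene beyond it, changed by 1.69 ± 0.24 (SE, edgeR adjusted p = 5e-06). On the beta side 9 of 11 were tested and OR52A1, BGLT3, TRIM21 and TRIM68 rose. OR52A1, an olfactory receptor gene, stayed below 2 CPM throughout the 2 groups and changed by 2.86 ± 0.57 (SE, edgeR adjusted p = 0.000294). The median over the alpha neighbours was -0.08 and over the beta neighbours 0.73, beside 0.04 over all genes.

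Of 9 activators of globin transcription, TAL1, GFI1B, KLF1 and LMO2 rose in mRNA IM 18h and none fell (17.2% of all genes higher and 13.2% lower), with a list median of 0.68. KLF1, the factor that drives adult beta-globin, measured 74.6 to 92.1 CPM in CTRL and 170.9 to 198.4 CPM in IM 18h, a log2 fold change of 1.11 ± 0.14 (SE, edgeR adjusted p = 1.67e-06). TAL1, which binds with GATA1, changed by 1.45. GATA1 itself was not called (mean 166 CPM in CTRL and 147 CPM in IM 18h). Of 11 tested repressors or stage factors, BACH1 rose and 4 fell, beside the same background, with a list median of 0.00. GATA2, which precedes GATA1 in erythroid cells, changed by -2.14 ± 0.17 (SE, edgeR adjusted p = 2.91e-09), NR2F2, a repressor of embryonic and fetal globin, by -1.90 ± 0.23 (SE, edgeR adjusted p = 9.25e-07), and MYB, which is tied to fetal globin silencing, by -1.50 ± 0.24 (SE, edgeR adjusted p = 3.57e-05). LIN28B, the other one lower, changed by -1.13. BCL11A, the main silencer of fetal globin, was not tested: it had 0 counts in 25 of 27 mRNA and all 15 nuclear libraries, each of which allows up to 0.186 CPM, and at most 1 count elsewhere.

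Most genes of globin assembly and haem supply were higher in IM 18h as well. Of 14, 11 rose in mRNA IM 18h and none fell (17.2% of all genes higher and 13.2% lower), with a median log2 fold change of 1.69. AHSP, the chaperone of free alpha-chains, measured 2.80 to 9.30 CPM in CTRL and 68.0 to 90.5 CPM in IM 18h, a change of 3.57 ± 0.67 (SE, edgeR adjusted p = 0.000255). ALAS2, the first enzyme of erythroid haem synthesis, changed by 3.83 ± 0.64 (SE, edgeR adjusted p = 8.96e-05), and SLC25A37, which carries iron into mitochondria, by 2.99 ± 0.30 (SE, edgeR adjusted p = 1.24e-07). In nuclear IM 18h 10 of the 14 rose and none fell, beside 17.2% of all genes higher and 15.4% lower. Against the same background, 3 of 10 alpha and 5 of 10 beta neighbours were higher and 1 was lower in each. Of the regulators, 5 of 9 activators were higher and 4 of 11 repressors or stage factors were lower. At 6 hours of imatinib, 7 of the 14 genes of assembly and haem supply were called higher in mRNA (5.82% of all genes). Their median log2 fold change was 0.87. The globin genes had a median of 0.78 and no call, and a difference between the sets was not tested. In mRNA JTE 18h none of the tested genes of these lists was called (5.39% of all genes called in either direction).

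The genes whose group means followed HBE1 most closely over the 9 mRNA groups were, among 8717 other genes of at least 10 CPM, IDH2 (Pearson r = 0.997), PKLR (0.994), DNAJC4 (0.994), COL18A1 (0.993) and TPP1 (0.993). For HBZ they were CA1 (0.998), SCIN (0.998), LTBP1 (0.996), DNAJC4 (0.995) and TPP1 (0.995). The 9 points share 1 cell line, and the IM 18h group lies far from the rest. Without it r ran from 0.955 to 0.992 for these 10 entries, which were chosen with it included. IM 6h was then the highest group, at 1981 CPM for HBE1 and 177 CPM for HBZ. The next means were 1292 and 80.4 CPM, both in KCl 3h. CA1, the red cell carbonic anhydrase, had a mean of 20.9 CPM in CTRL and 302.5 CPM in IM 18h.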

How the data were processed

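Poly(A)+ mRNA-seq (27 libraries, 9 groups) and nuclear RNA-seq (15 libraries, 5 groups) of K562 cells were analysed from 2 tables of counts deposited by the authors. The authors trimmed and deduplicated reads with FASTP, mapped them with STAR 2.7.7a to GRCh38.p14, kept unique alignments with introns of up to 10000 bases, and counted read pairs over exons per gene with featureCounts (Subread 2.0.3). These counts are raw. No strand setting and no annotation release are given in the sources used here. Deduplication by sequence can remove true copies of very abundant short transcripts such as globins, and its effect was not tested.

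Groups were taken from the labels. All libraries of a fraction entered 1 fit in edgeR 4.0.16 (R 4.3.3) with TMM normalization, edgeR's filter on low counts and a robust quasi-likelihood test, and p-values were adjusted by Benjamini-Hochberg over all genes tested. Calls needed an adjusted p below 0.05 together with a change past 0.6 on the log2 scale in either direction. The difference between nuclear and mRNA responses was an interaction term over 12 libraries. DESeq2 1.42.0, other normalizations and filters, leaving out each library and a replicate block were alternatives, and the code was tested on simulated data. The block was shared by all libraries of a fraction in a fit, including mRNA groups whose numbers did not pair. Ratios between genes were compared by exact permutation tests. Gene models for positions and canonical lengths were those of GENCODE 44, and promoters those of RefSeq.

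The members and the lists were chosen with earlier results of these data known. All 10 members are named. From 3 lists (cluster neighbours, regulators, haem supply), the 3 genes called with the largest changes in mRNA IM 18h are named with values, plus BCL11A, KLF1, AHSP and ALAS2. Other list genes were named after their values were seen. Some of the cell type markers are not reported here. The genes most like HBE1 and HBZ are the 5 with the highest Pearson r each, over group means of log2(CPM + 0.5).

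Replicates differed by more than counting noise. The labels give replicate numbers but no shared day or batch. Same-numbered libraries deviated together (every correlation over 0.1) for each nuclear comparison with CTRL and, in mRNA, for IM 6h against IM 1h, JTE 18h against JTE 6h, KCl 3h against KCl 1h and IM 6h against JTE 6h.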

Additional observations from a re-analysis of the deposited data

How the results depend on the processing

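Over all comparisons, members were called 44 times. In 608 results under other settings for these calls the direction was the same in all 608, and 584 kept the call. The setting without the fold threshold reused the main fit, so for these 44 calls it could not differ. With no filter on low counts, the number of globin genes called became 6 in mRNA IM 6h against CTRL, 5 in JTE 18h against CTRL, 1 each in KCl 1h and KCl 3h against CTRL, 8 in IM 6h against IM 1h, 8 in IM 18h against IM 6h, 4 in JTE 18h against JTE 6h, and 6 in IM 6h against JTE 6h. With the replicate number as a block the counts were 3 in mRNA IM 6h against CTRL, 2 in JTE 18h against CTRL, 1 in KCl 3h against CTRL, 6 in IM 6h against IM 1h, 7 in IM 18h against IM 6h, 4 in JTE 18h against JTE 6h, and 5 in IM 6h against JTE 6h; in the other comparisons the block kept the count within 1.5 times. DESeq2 gave 6 in IM 18h against IM 6h. A fit of only the 2 groups gave 4 there and 2 in JTE 18h against CTRL. With near-identical copies summed, 1 was called in JTE 18h against JTE 6h, HBQ1, and the summed fetal pair was not called. Without the fold threshold, 1 was called in IM 6h against JTE 6h. The causes of these shifts were not tested, and the shares of all genes called under these settings are not given here.

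Leaving out 1 library at a time gave 7 to 10 calls in mRNA IM 18h against CTRL, 0 to 1 in IM 6h against CTRL (1, HBQ1, without CTRL replicate 2), 0 to 1 in JTE 18h against CTRL, 0 to 6 in IM 18h against IM 6h, 0 to 2 in JTE 18h against JTE 6h, and 0 to 2 in IM 6h against JTE 6h (2 without JTE 6h replicate 1). In nuclear KCl 1h it gave 1 to 2, with HBM called as well without KCl 1h replicate 1. In nuclear IM 18h it gave 9 to 10 against CTRL and 9 to 10 against IM 1h.

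In mRNA, the numbers as labelled did not pair with CTRL for all 3 replicates, and the main tests against CTRL used no pairing. For replicate 3 alone, the correlation with CTRL was 0.877 in IM 1h, 0.860 in JTE 1h and 0.846 in KCl 1h. It was 0.122 in IM 18h and 0.0545 in JTE 18h. In all 8 treated mRNA groups replicate 1 correlated best with CTRL replicate 2 and replicate 2 with CTRL replicate 1. Read totals listed in the paper also give these 2 CTRL libraries the other way round, 19031221 for replicate 1 and 18333127 for replicate 2. By the deposited labels these totals were 18333127 for replicate 1 and 19031221 for replicate 2. The deposited labels were kept, and a fit with these 2 numbers exchanged was not run. HBB in mRNA and HBM in nuclear RNA had few counts, so their values are imprecise. Levels per kilobase moved by more than the replicate SD with canonical lengths for 101 of 140 gene and group pairs.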

Other observations

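BGLT3, a noncoding RNA gene just downstream of HBG1, measured 17.8, 9.72 and 10.6 CPM in mRNA CTRL and 59.2, 59.7 and 46.7 CPM in JTE 6h. All 3 JTE 6h libraries were above CTRL, and the log2 fold change was 2.19 (edgeR adjusted p = 9.97e-06), while no globin gene was called in that group. HBBP1, the pseudogene beside it, measured 91.7, 69.4 and 46.3 CPM in JTE 6h and 17.8, 28.8 and 19.8 CPM in JTE 18h, and fell by 1.78 on the log2 scale between them (edgeR adjusted p = 0.0168). HBG1 was called lower in the same comparison. The CPM of HBBP1 in IM 18h, 60.9, 64.0 and 78.7, overlapped CTRL at 64.2, 69.2 and 25.4. BGLT3 and HBBP1 were named after their values were seen. Strand was not stated for the counting, so reads of overlapping transcripts on the other strand cannot be told apart.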
